A study of Mus musculus with 18 samples.

Results

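The comparison set lymphoma cells that had grown out after treatment with Adriamycin (ADR) alone against untreated cells of the same lymphomas. Its members were the ADR outgrowth and untreated arrays, paired by lymphoma number, of the 2 lymphomas (4146 and 4936) whose ADR outgrowth array holds values. These are 4 of the 17 arrays with values in the series. The ADR outgrowth of the other lymphoma, 5043, holds no values and is marked in the labels as having failed quality control. Across genes, 18194 had a named probe set, of which the one with the highest mean over the 17 arrays stood for the gene. Of these, 11929 were tested.

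ADR outgrowth cells had been kept in ADR for 5 days in vitro and then in drug-free medium for 14 days, and untreated cells received no drug. Both groups are primary B-cell lymphoma cells from lymph nodes of Eµ-myc mice on a C57/Bl6 background, in which the immunoglobulin heavy chain enhancer drives the Myc oncogene in B cells. Both are also null for Suv39h1, an enzyme that methylates histone H3 at heterochromatin, and both carry retroviral Bcl2, which blocks apoptosis, and retroviral Suv39h1-ERT2. This fusion is switched on by 4-hydroxytamoxifen (4-OHT), which neither group received. The labels do not say how long the untreated cells had been in culture, so time in culture and ADR cannot be told apart. Each lymphoma gave 1 array per group, so a difference within a lymphoma has no replicate of its own, and the lymphomas are the 2 replicates. The other groups are ADR 5 d, ADR+4-OHT 5 d, and FACS-sorted big and small cells that grew out after ADR+4-OHT.

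ADR intercalates into DNA and traps topoisomerase II, and cells that survive it with apoptosis blocked can enter senescence, a lasting arrest in which many cells also secrete cytokines and proteases. Histone H3 methylation by Suv39h1 has been described as part of that arrest in lymphomas of this kind, and outgrowth refers to the cells that divide after the drug is withdrawn. Myc, the driving oncogene, is a transcription factor that binds E-boxes and raises ribosome production, and B cells depend on signals through the B cell receptor, a complex of immunoglobulin with the Cd79a and Cd79b chains.

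Values are log2 signals, and a difference of 1 is 2-fold. The authors' values hold no offset between lymphomas, because each of the 45101 probe sets has the same median in every lymphoma, so levels are compared only within a lymphoma. The 4 compared arrays gave no sign of mixed identity: of 20 immunoglobulin variable-region probe sets, 0 differed by 2 log2 units or more between ADR outgrowth and untreated cells in either lymphoma. By contrast, 5 of these 20 lay that far from the lymphoma's median on the ADR 5 d array of 4936, and 1 did on the ADR+4-OHT 5 d array of 4146. Both arrays enter the comparison with untreated cells through its error, and also through the choice of probe set and of genes tested. The result of the fit without them is given with the tests. As a sign of RNA quality, the Actb signal near the 3′ end exceeded that near the 5′ end by 1.33 in ADR outgrowth and 1.39 in untreated cells of 4146, and by 1.26 in ADR outgrowth and 1.65 in untreated cells of 4936. For Gapdh this excess was 0.345 in ADR outgrowth and 0.515 in untreated cells of 4146, and 0.437 in ADR outgrowth and 0.479 in untreated cells of 4936. For Tfrc it lay in opposite directions in the lymphomas, with 2.30 in ADR outgrowth and 1.56 in untreated cells of 4146, and 1.18 in ADR outgrowth and 2.16 in untreated cells of 4936. The part of RNA quality in the results was not tested.

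No gene passed the test. Limma's moderated test, fitted over the 12 arrays of both lymphomas with lymphoma as a block and adjusted by Benjamini-Hochberg, called 0 of 11929 genes (0%) at 0.05, and its lowest adjusted p was 0.44. At an unadjusted p under 0.05 it took 413 genes (3.46%), of which 246 lay higher and 167 lower in ADR outgrowth. Leaving out the ADR 5 d array of 4936, alone or with the ADR+4-OHT 5 d array of 4146, also gave 0 calls in each direction. The error of this test includes how far the lymphomas differed in their response, and genes below are therefore described by their values in each lymphoma, with no statement that any of them changed.

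The outgrowths of the 2 lymphomas differed from their untreated cells mostly in opposite directions. Signs were opposite for 6965 genes (58.4%), while 2500 (21%) lay higher and 2406 (20.2%) lower in ADR outgrowth of both. Across genes, which are not independent replicates, the paired differences of the lymphomas had a Pearson r of -0.25 and a Spearman rho of -0.28 over the 11929 genes. Their standard deviation over genes was 0.57 in 4146 and 0.66 in 4936, against a median standard error of 0.28 in the fit. In 4146, 616 genes (5.16%) lay at least 1 log2 unit higher in ADR outgrowth and 167 (1.4%) at least 1 lower. The counts for 4936 were 802 higher (6.72%) and 657 lower (5.51%). Both lymphomas passed 1 log2 unit in the same direction for 37 genes higher (0.31%) and 13 genes lower (0.109%) in ADR outgrowth, and in opposite directions for 149 genes (1.25%). Averaging the probe sets of each gene moved the 37 to 22 and the 149 to 95, and quantile normalisation moved the 13 to 20. Of the 149, 113 lay higher in ADR outgrowth of 4146 and lower in that of 4936, and 36 the other way.

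**Figure D1:**
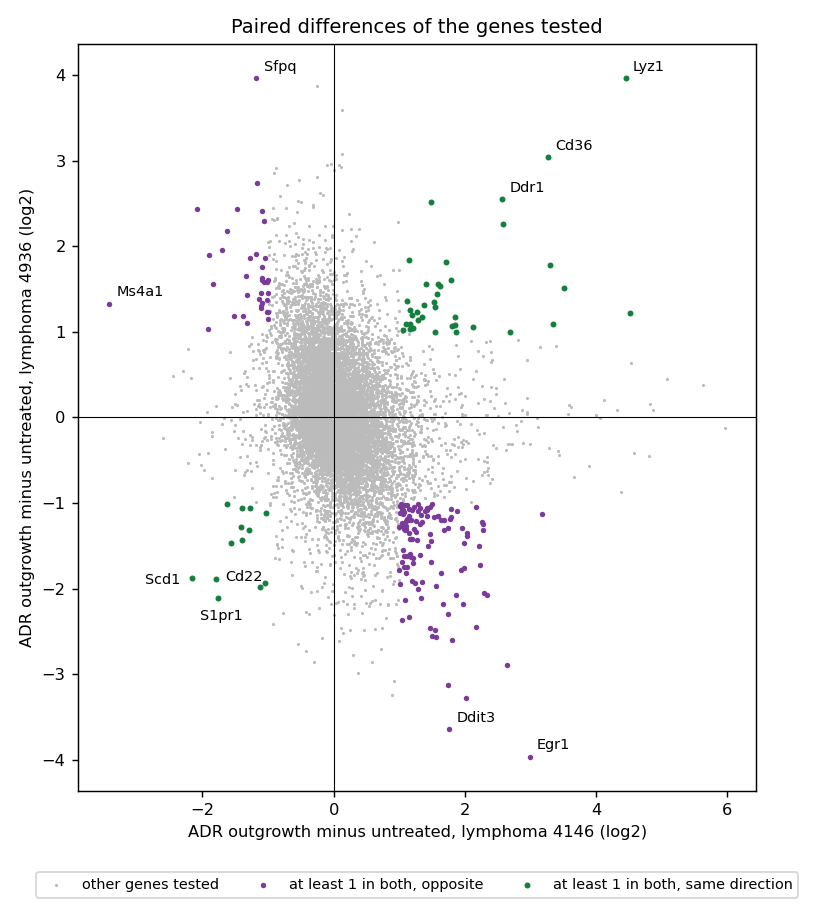
Each point is 1 of the 11929 genes tested, placed by its ADR outgrowth minus untreated difference (log2) in lymphoma 4146 on the horizontal axis and in 4936 on the vertical axis. The 50 green points pass 1 log2 unit in the same direction in both lymphomas, and the 149 purple points do so in opposite directions, most of them at the lower right.

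The genes that stood highest in ADR outgrowth of both lymphomas were chosen by the smaller of their paired differences. Lyz1, a lysozyme of macrophages and other myeloid cells, had signals of 8.64 and 8.79 in ADR outgrowth of 4146 and 4936, against 4.18 and 4.83 in untreated cells. Both untreated values lie under 4.86, the median of all values and the limit used for a low signal. The Lyz1 difference of 4.21 ± 1.54 (2 pairs, standard error of the fit, limma adjusted p = 0.996) thus rests on a low end. Here and below, that standard error comes from all groups in the fit, not from the spread between the 2 pairs. Lyz2, a relative of Lyz1, had 7.33 and 7.77 in ADR outgrowth and 4.75 and 5.51 in untreated cells. Probe sets of the lysozymes may share transcripts, since that of Lyz1 is of a type that can cross-hybridise. Of the 3 Lyz1 probe sets, another of that type differed by 4.00 and 3.00. The remaining one differed by -0.06 and -0.02 only, at a mean level of 3.20, under 4.86.

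Cd36 is a scavenger receptor that takes up fatty acids and lipoproteins. It had 7.55 and 8.99 in ADR outgrowth of 4146 and 4936 and 4.29 and 5.95 in untreated cells. The Cd36 difference was 3.15 ± 0.93 (2 pairs, standard error of the fit, limma adjusted p = 0.996). All 3 of its probe sets lay higher in ADR outgrowth of both lymphomas. The chemokine Ccl9 had 9.89 and 8.11 in ADR outgrowth and 6.39 and 6.59 in untreated cells, so the 4146 pair was further apart than the 4936 pair. P2ry14, a receptor for UDP-sugars, differed by 3.29 in 4146 and 1.78 in 4936, with both untreated values (4.21 and 4.62) under 4.86. Cfp (properdin, which stabilises the alternative complement convertase) differed by 1.71 and 1.82, and by 0.14 and 0.85 on its other probe set. Cp (ceruloplasmin, a copper-carrying ferroxidase) differed by 1.62 and 1.54, with all 8 Cp probe sets higher in ADR outgrowth of both lymphomas. In all 5 of these genes, as their choice requires, ADR outgrowth was the higher array in both lymphomas.

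Arrdc3, an arrestin-domain protein that acts in receptor trafficking, had 9.47 and 8.19 in ADR outgrowth of 4146 and 4936 and 7.67 and 6.58 in untreated cells. Tnfrsf18 (GITR, a co-stimulatory receptor) was among the most even genes, with 6.94 and 6.93 in ADR outgrowth and 5.36 and 5.38 in untreated cells. Its difference was 1.57 ± 0.36 (2 pairs, standard error of the fit, limma adjusted p = 0.996). The collagen receptor Ddr1 differed by 2.57 and 2.55 on the probe set used, but its other 7 probe sets did not follow it, running from -0.65 to 0.09 in 4146 and from -0.58 to 1.34 in 4936. Further genes at least 1 log2 unit higher in ADR outgrowth of both lymphomas included the heme oxygenase Hmox1 (1.14 and 1.84), the inhibitory receptor Ctla4 (1.85 and 1.08), the chemokine receptor Ccr1 (4.52 and 1.22), the myeloid gene Mpeg1 (1.85 and 1.17) and Irak3, a brake on Toll-like receptor signalling (1.37 and 1.31). These 5 were named after their values were seen. The co-stimulatory ligand Cd80 differed by 1.53 and 1.35 on the probe set used, but its 2 next brightest probe sets were of opposite sign in 4936 (1.16 and -1.06 on the one, 1.38 and -1.40 on the other).

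**Figure D2:**
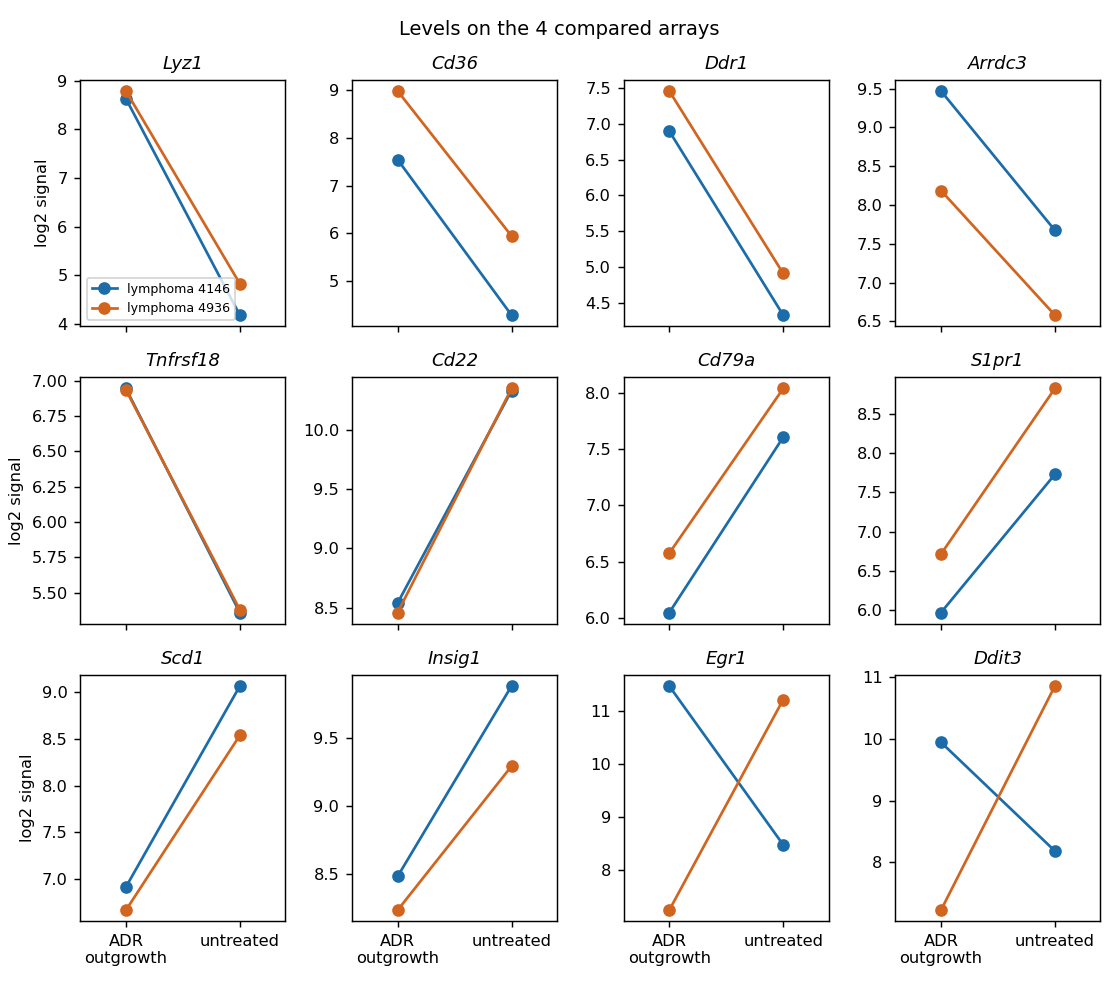
Log2 signals of 12 genes on the 4 compared arrays, ADR outgrowth at the left and untreated at the right of each panel, with a line joining the arrays of 1 lymphoma. Lines run the same way in both lymphomas for 10 genes, while those of Egr1 and Ddit3 cross, with 11.46 and 7.25 for Egr1 in ADR outgrowth of 4146 and 4936 against 8.48 and 11.21 in untreated cells. Each panel has its own vertical axis, which does not start at 0.

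Markers of the B cell and of its receptor were lower in ADR outgrowth of both lymphomas for 16 of 36 genes tested (20.2% of all genes tested). The list median was -0.44 in 4146 and -0.25 in 4936, beside 0.00 and 0.01 for all genes tested. Of the 36, 5 lay higher in both (21% of all genes tested), 15 had opposite signs (58.4%), and 0 passed the limma test. Cd22 is a sialic acid-binding inhibitor of the B cell receptor. It had 8.54 and 8.46 in ADR outgrowth of 4146 and 4936 and 10.33 and 10.35 in untreated cells. The Cd22 difference was -1.84 ± 0.49 (2 pairs, standard error of the fit, limma adjusted p = 0.996). Its second probe set differed by -2.15 and -2.26. Cd79a, the signalling chain of the receptor, had 6.05 and 6.58 in ADR outgrowth and 7.61 and 8.04 in untreated cells. For both genes, chosen for it, ADR outgrowth was the lower array in each lymphoma.

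Other B-lineage genes at lower values in ADR outgrowth of both lymphomas were the recombinase Rag1 (-1.63 and -1.01), the progenitor marker Cd93 (-1.19 and -0.98), the lineage factor Pax5 (-0.60 and -0.99), its partner Ebf1 (-1.18 and -0.52) and the coactivator Pou2af1 (-1.51 and -0.62). Not all of the list went that way. Ms4a1, which encodes CD20, differed by -3.42 in 4146 and 1.33 in 4936, and Bcl6, a repressor of germinal centre B cells, by 1.29 and -2.0. Spib, an Ets factor of B cells, had 7.87 and 9.35 in ADR outgrowth and 7.74 and 7.17 in untreated cells, so only the 4936 pair was apart. S1pr1 is the receptor for sphingosine 1-phosphate that guides lymphocytes out of lymphoid organs. It had 5.97 and 6.71 in ADR outgrowth and 7.73 and 8.82 in untreated cells. Its difference of -1.94 ± 0.40 (2 pairs, standard error of the fit, limma adjusted p = 0.996) was among the larger ones. In bulk samples such as these, fewer cells of a type and less RNA per cell cannot be told apart.

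Lower values in both lymphomas were also found for B3gnt5, a glycosyltransferase that starts lacto-series glycolipids (-1.40 and -1.43), and for Usp53, named as a ubiquitin-specific protease (-1.42 and -1.28), 2 other probe sets of which did not share that difference (0.46 and -0.53 on the one, -0.02 and -0.65 on the other). The lowest adjusted p of the whole table (0.44, limma) was shared by Zfp846, a zinc finger gene, and Gm34006, an annotated gene model. Zfp846 had 5.59 and 5.30 in ADR outgrowth of 4146 and 4936 and 4.24 and 4.13 in untreated cells, and was named after its values were seen. Gm34006 had 4.05 and 4.17 in ADR outgrowth of 4146 and 4936 and 5.33 and 5.49 in untreated cells. Both untreated values of Zfp846 and both ADR outgrowth values of Gm34006 lie under 4.86. Ovgp1, an oviduct glycoprotein gene, differed by -1.12 and -1.98, and the gene model Gm6958 by -1.27 and -1.06.

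Genes of cholesterol and fatty acid synthesis were lower in ADR outgrowth of both lymphomas for 20 of 27 tested (20.2% of all genes tested), and higher in both for 0 (21%). The list median was -1.32 in 4146 and -0.21 in 4936, 16 members lay at least 1 log2 unit lower in 4146 (1.4% of all genes tested), and 3 did so in 4936 (5.51%). No member passed the limma test, and 8 had an unadjusted p under 0.05 (3.46% of all genes tested). Scd1, the desaturase that makes oleate, had 6.91 and 6.66 in ADR outgrowth of 4146 and 4936 and 9.07 and 8.54 in untreated cells. Insig1, which holds the sterol-sensing complex in the endoplasmic reticulum and is itself induced by SREBP factors, had 8.48 and 8.24 in ADR outgrowth and 9.88 and 9.29 in untreated cells. These also were chosen for being lower in ADR outgrowth of each lymphoma.

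Several enzymes of the sterol pathway were further apart in the 4146 pair than in the 4936 pair. Cyp51, which removes the 14-methyl group of lanosterol, differed by -2.05 in 4146 and -0.42 in 4936, Hmgcs1, at the entry of the mevalonate pathway, by -1.86 and -0.21, and the squalene epoxidase Sqle by -1.68 and -0.01. Pmvk, a mevalonate pathway kinase, was alike in both pairs (-0.93 and -0.93), and Srebf2, the factor that drives sterol synthesis genes, was lower by more in 4936 (-0.56 and -1.24). Members of opposite sign included Idi1, an isomerase of the mevalonate pathway (-1.33 and 1.43). On the fatty acid side, Fasn, fatty acid synthase, had 9.25 and 10.70 in ADR outgrowth of 4146 and 4936 and 10.16 and 8.79 in untreated cells, and the elongase Elovl6 differed by -1.0 and 1.23. The untreated array of 4146 had the highest mean of the list among the 6 arrays of its lymphoma (9.68, against 8.44 in ADR outgrowth and 8.52 to 9.0 in the other groups), while untreated cells of 4936 ranked 4 of 6 (8.71, against 8.52 in ADR outgrowth).

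**Figure D3:**
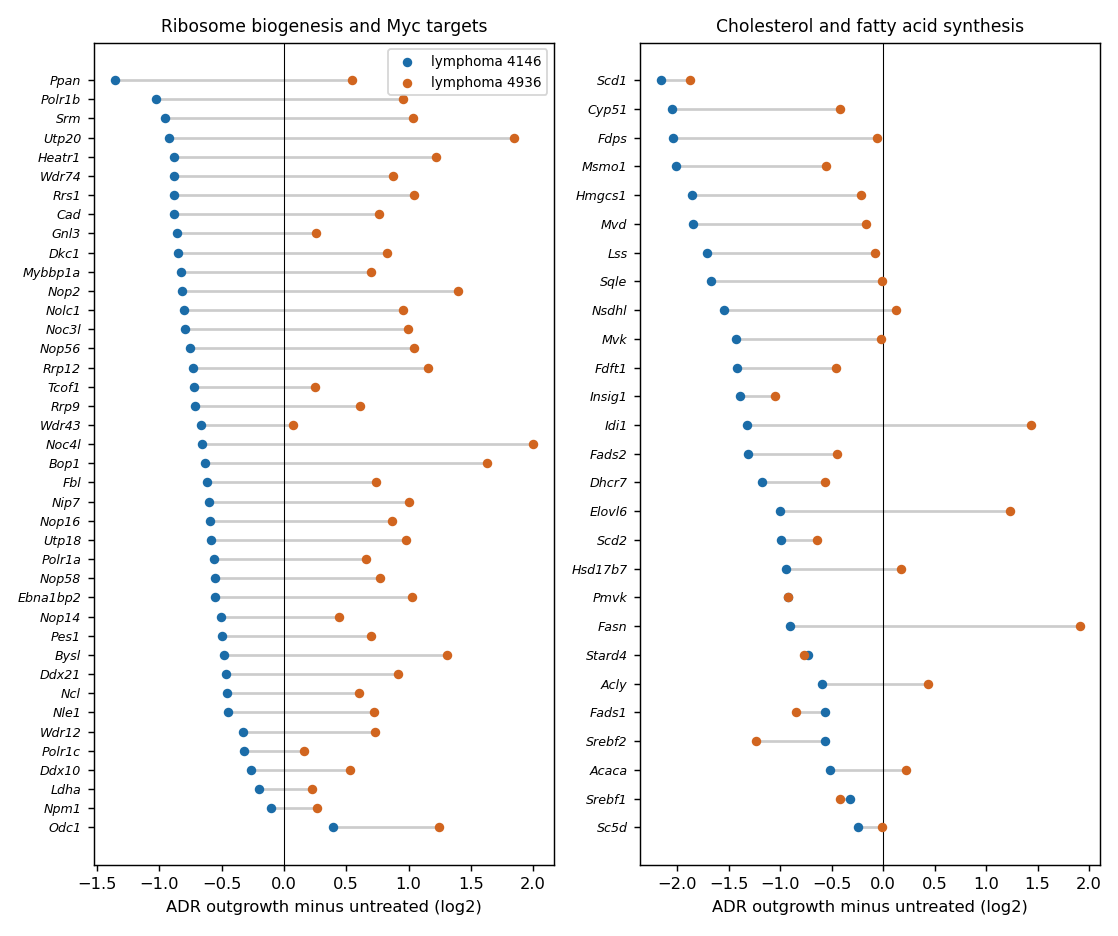
ADR outgrowth minus untreated difference (log2) of every tested member of 2 gene lists, with 1 point per lymphoma. The lists are ribosome biogenesis and Myc targets (40 genes) and cholesterol and fatty acid synthesis (27 genes). In the ribosome list all 4936 points lie above 0 and all 4146 points but that of Odc1 lie below 0, while in the cholesterol list all 4146 points lie below 0.

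Among the 37 lists, the split between the lymphomas was most complete in that of ribosome biogenesis and Myc targets. Of 40 genes tested, 39 lay lower in ADR outgrowth of 4146 and higher in that of 4936 (29.8% of all genes tested), with medians of -0.65 and 0.85, and Odc1, the rate-limiting enzyme of polyamine synthesis, was the exception at 0.39 and 1.25. Noc4l, a nucleolar factor of the small ribosomal subunit, had 8.64 and 10.58 in ADR outgrowth of 4146 and 4936 and 9.30 and 8.58 in untreated cells. Utp20, of the same assembly line, had 8.75 and 9.94 in ADR outgrowth and 9.67 and 8.09 in untreated cells. Nop2, a methyltransferase of the large subunit RNA, differed by -0.82 and 1.4, nucleolin (Ncl) by -0.45 and 0.60, and nucleophosmin (Npm1) by -0.11 and 0.26. Myc itself was close to level, with 11.42 and 11.97 in ADR outgrowth and 11.78 and 11.83 in untreated cells. The Myc difference was -0.11 ± 0.30 (2 pairs, standard error of the 12-array fit, limma adjusted p = 0.999).

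Set among the 6 arrays of its lymphoma, the mean of the 40 genes was lowest in ADR outgrowth in 4146 (9.92, with 10.56 in untreated cells) and highest in ADR outgrowth in 4936 (10.80, with 9.95 in untreated cells). Because Myc binds the E-box CACGTG, the promoters of this list were searched for these letters, which read the same on both strands. In RefSeq's mouse promoter windows (GRCm38.p6, 300 bases, most of them before a gene's start), 33 of the 40 genes had an entry, and 8 of these (24.2%) held the E-box, beside 8.09% of all 27025 genes with an entry. A match is no more than a description of the letters in the window. The cholesterol and fatty acid synthesis list was searched in the same way for the sterol regulatory element. Of its 20 genes with an entry, 1 (5%) held that element, beside 1.44% of all genes with an entry. The ribosome list was drawn up to hold Myc targets, so a higher share with the E-box is no separate evidence about these data. Shown are the windows of 3 genes taken for the widest gap between the lymphomas, whatever their letters, each read along its gene's strand from 5′ to 3′, with the E-box in capitals:
Utp20 promoter, chr10:88826765-88827064 (minus strand): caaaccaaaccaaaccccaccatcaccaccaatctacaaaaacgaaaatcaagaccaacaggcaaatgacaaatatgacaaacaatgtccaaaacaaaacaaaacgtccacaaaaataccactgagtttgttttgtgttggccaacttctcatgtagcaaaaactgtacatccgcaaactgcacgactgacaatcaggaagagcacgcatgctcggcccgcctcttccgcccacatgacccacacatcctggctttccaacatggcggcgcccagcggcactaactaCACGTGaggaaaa
Noc4l promoter, chr5:110653333-110653632 (minus strand): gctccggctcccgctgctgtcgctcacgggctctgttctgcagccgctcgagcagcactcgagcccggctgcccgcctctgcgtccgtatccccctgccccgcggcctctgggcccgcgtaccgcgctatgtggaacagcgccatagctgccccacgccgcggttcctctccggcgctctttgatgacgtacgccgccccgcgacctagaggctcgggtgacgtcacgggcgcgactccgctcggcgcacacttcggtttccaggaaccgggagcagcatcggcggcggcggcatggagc
Nop2 promoter, chr6:125131633-125131932 (plus strand): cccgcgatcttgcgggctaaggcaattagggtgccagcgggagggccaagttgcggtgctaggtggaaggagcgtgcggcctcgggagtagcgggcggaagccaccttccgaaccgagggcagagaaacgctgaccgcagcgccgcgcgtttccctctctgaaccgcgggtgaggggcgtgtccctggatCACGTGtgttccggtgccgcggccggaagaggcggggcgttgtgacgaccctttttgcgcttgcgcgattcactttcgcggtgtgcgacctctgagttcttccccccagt
Utp20 holds the E-box 37 bases after the start and Nop2 60 bases before it, and Noc4l holds none. Noc4l had the largest difference of the list in 4936 (2.0). The part of the E-box in these differences was not tested.

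Many immediate early genes lay the opposite way round in the pairs. Of 33 immediate early and AP-1 genes tested, 17 lay higher in ADR outgrowth of 4146 and lower in that of 4936, a pattern of 28.6% of all genes tested. In 4146 13 were at least 1 log2 unit higher (5.16% of all genes), in 4936 14 were at least 1 lower (5.51%), and the medians were 0.39 and -0.59. Egr1, an early growth response factor, had the widest gap between the lymphomas of the genes passing 1 log2 unit in both, differing by 2.99 in 4146 and -3.96 in 4936. Jun differed by 1.68 and -1.20, and Zfp36, which speeds decay of cytokine mRNAs, by 1.5 and -2.56. Fos, in contrast, was lower in both (-0.17 and -2.57). In the list for unfolded protein stress and the integrated stress response (34 genes), 14 had that pattern (28.6% of all genes tested) and 7 the reverse (29.8%). The other 13 had 1 sign in both, near the share of all genes (41.1%), and the list medians were 0.04 and -0.32. Among the 14, the factor Ddit3 had 9.95 and 7.22 in ADR outgrowth of 4146 and 4936 and 8.18 and 10.86 in untreated cells. For Ddit3 the order of the groups was thus reversed between the lymphomas. Egr1, Jun, Zfp36 and Ddit3 were picked after their values were seen.

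Glycolysis and hypoxia genes split in the same manner: 24 of 36 tested lay higher in ADR outgrowth of 4146 and lower in that of 4936 (28.6% of all genes tested). Of the 36, 3 were higher in both (21%) and 4 lower in both (20.2%), with medians of 0.37 and -0.56. Ndrg1, a hypoxia-induced gene, had 14.17 and 10.05 in ADR outgrowth of 4146 and 4936 and 11.95 and 11.55 in untreated cells. The glycolytic enzyme Aldoc differed by 1.57 and -2.56, the peptide hormone Adm by 1.67 and -2.18 and the oxidase Ero1a by 1.47 and -2.46. Lysosome genes followed the same order in 23 of 37, with medians of 0.59 and -0.28, and so did NF-kB targets in 15 of 24 (0.66 and -0.31). Heat shock genes leaned the other way, with medians of -0.04 and 0.62 over 12 genes, as the chaperone Hsph1 shows (-0.73 and 1.4).

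Interferon-responsive genes stood higher in ADR outgrowth of 4146 and near level in 4936. Of 35 tested, 21 lay at least 1 log2 unit higher in 4146 (5.16% of all genes tested) and 0 in 4936 (6.72%), with medians of 1.85 and -0.01, and the sign of the second median turns under 2 other ways of summarising or scaling the arrays. Gbp2, an interferon-induced GTPase, had 9.38 and 5.66 in ADR outgrowth of 4146 and 4936 and 5.01 and 6.54 in untreated cells. The chemokine Cxcl10 had 6.86 and 4.64 in ADR outgrowth and 3.27 and 4.50 in untreated cells, and the factor Irf1 differed by 2.43 and -0.32. The peptide transporter Tap1 differed by 2.09 and -0.98, and the class I molecules H2-K1 and H2-D1 by 2.27 and 2.28 in 4146 and by -1.24 and -1.31 in 4936. Within 4146 the list mean was 8.06 in ADR outgrowth and 6.42 in untreated cells, the lowest of the 6 arrays of that lymphoma, while in 4936 ADR outgrowth was the lowest (6.83, with 6.93 in untreated cells). Of the classical interferon-induced genes, Ifit1 (0.13 and -0.09) and Rsad2 (-0.01 and 0.21) showed little difference in either.

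Senescence-associated secreted factors had medians of 0.90 in 4146 and -0.01 in 4936 over 32 genes, the second turning positive under 3 alternatives. At least 1 log2 unit higher in ADR outgrowth were 16 in 4146 (5.16% of all genes tested) and 2 in 4936 (6.72%), the second close to the share of all genes. Ccl5, a chemokine for T cells, had 8.43 and 4.67 in ADR outgrowth of 4146 and 4936 and 2.46 and 4.80 in untreated cells, the widest paired difference of the list in 4146 (5.97). Collagenase Mmp13 had 8.82 and 7.02 in ADR outgrowth and 3.19 and 6.65 in untreated cells, and the growth factor Csf2 had 7.86 and 4.38 in ADR outgrowth and 2.78 and 3.93 in untreated cells. Several of the untreated values in 4146 lie far under 4.86, so these differences measure the distance from a low signal. Il6 differed by 2.99 and -0.31 and Il1b by 2.70 and -0.32. Ccl9, described above, was the single member at least 1 log2 unit higher in both. Its other probe set differed by 3.72 in 4146 and 0.46 in 4936.

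**Figure D4:**
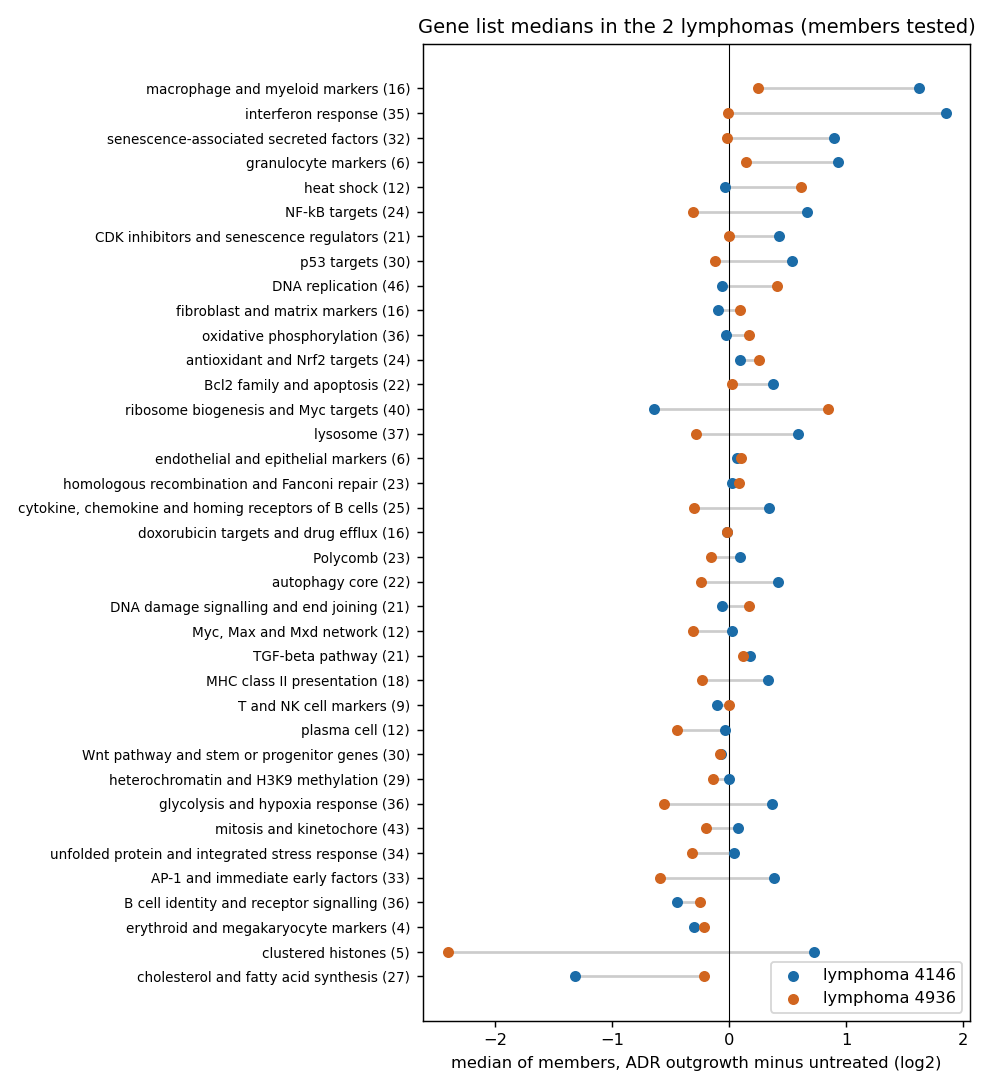
Medians over the tested members of 37 gene lists of the ADR outgrowth minus untreated difference (log2), 1 point per lymphoma joined by a grey line, ordered by the median of the mean difference, with the number of members in parentheses. Ribosome biogenesis and Myc targets (-0.65 and 0.85), clustered histones and immediate early factors have points on both sides of 0, while cholesterol synthesis and B cell genes have both points below 0.

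Among cell-cycle inhibitors, Cdkn1a (p21, a p53-induced inhibitor) had 13.15 and 11.46 in ADR outgrowth of 4146 and 4936 and 11.56 and 12.25 in untreated cells, and Cdkn2a (p16 and Arf) had 6.19 and 3.88 in ADR outgrowth and 5.40 and 4.35 in untreated cells, low signals in 4936. Neither gene's groups were in the same order in both lymphomas. Cdkn2b, the p15 inhibitor, lay higher in both at 2.38 and 0.89, from untreated signals of 2.96 and 4.46 that are both under 4.86. Targets of p53 had medians of 0.54 and -0.12 over 30 genes, with 15 higher in ADR outgrowth of 4146 and lower in that of 4936 (28.6% of all genes tested), such as the death receptor Fas (1.80 and -0.31), and Mdm2, the p53 ubiquitin ligase, at 0.89 and 0.07. Bcl2 had 9.10 and 7.74 in ADR outgrowth and 8.73 and 9.52 in untreated cells, and the labels do not say whether these probes also read the retroviral copy. Of its 5 probe sets, 4, this one included, had these signs, and the other was lower in both.

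Mitosis genes were near level, and DNA replication genes lay higher in ADR outgrowth of 4936. Mki67, a marker of dividing cells, had 11.57 and 11.67 in ADR outgrowth of 4146 and 4936 and 11.76 and 12.19 in untreated cells. The Mki67 difference was -0.36 ± 0.38 (2 pairs, standard error of the 12-array fit, limma adjusted p = 0.996). The 43 mitosis genes tested had medians of 0.08 and -0.20, with 0 at least 1 log2 unit apart in 4146. DNA replication genes had medians of -0.06 and 0.41 over 46 genes, of which 39 lay higher in ADR outgrowth of 4936 (50.9% of all genes tested) and 16 in that of 4146 (49.7%). The helicase subunit Mcm5 differed by -0.55 and 0.98 and cyclin E (Ccne1) by -0.01 and 1.44. Of the clustered histone genes 5 were tested, with medians of 0.72 and -2.41, and the linker histone H1f2 had 11.93 and 8.18 in ADR outgrowth and 10.19 and 11.30 in untreated cells.

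Heterochromatin genes were read because the endogenous Suv39h1 is deleted in all these cells, which carry the Suv39h1-ERT2 fusion in its place. Suv39h1 itself was not analysed here, as no probe set used carried its symbol alone. Its paralogue Suv39h2 had 7.38 and 8.01 in ADR outgrowth of 4146 and 4936 and 7.37 and 7.52 in untreated cells. The 29 genes of H3K9 methylation and its removal had medians of 0.00 and -0.13, and 0 lay at least 1 log2 unit higher or lower in both lymphomas. The demethylase Kdm3a differed by 0.74 and -1.49 and the DNA methyltransferase Dnmt3b by -0.70 and 1.39. Drug-related genes were close to level too: the 16 genes of doxorubicin targets and efflux had medians of -0.02 and -0.02, and the efflux pump Abcb1b differed by 0.13 and 0.56.

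Markers of non-B cells were read beside these results, since Lyz1, Lyz2, Cd36 and Mpeg1 are myeloid genes. Of 16 macrophage and myeloid markers tested, 8 lay higher in ADR outgrowth of both lymphomas (21% of all genes tested), 1 lower in both (20.2%) and 7 had opposite signs. At least 1 log2 unit higher in both were 4 of the 16 (0.31% of all genes), and the medians were 1.63 in 4146 and 0.25 in 4936. Lyz1 and Cd36, which had prompted this reading, are among these 4, so the count is not independent of them. The mean level of the 16 markers was 7.27 and 6.61 in ADR outgrowth of 4146 and 4936 and 5.60 and 5.99 in untreated cells, the lowest of the 6 arrays in each lymphoma. Among the defining markers, Adgre1 had 4.68 and 4.15 in ADR outgrowth and 3.53 and 4.70 in untreated cells, all under 4.86. Itgam (CD11b) had 8.23 and 4.46 in ADR outgrowth and 3.65 and 4.88 in untreated cells. Csf1r, the receptor for macrophage growth factor, had 5.92 and 5.36 in ADR outgrowth and 5.17 and 5.70 in untreated cells. The part of myeloid cells in the results was not tested.

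Granulocyte markers had medians of 0.93 and 0.15 over 6 genes, with mean levels of 5.69 and 4.54 in ADR outgrowth of 4146 and 4936 and 4.25 and 4.46 in untreated cells. The lipocalin Lcn2 was the largest of those with 1 sign in both, at 3.15 and 0.82. Fibroblast and matrix markers (16 genes, medians -0.09 and 0.10) and T and NK cell markers (9 genes, medians -0.10 and 0.00) were near level, and their mean levels of 5.59 and 5.14 and of 6.01 and 5.70 in ADR outgrowth compare with 5.48 and 5.05 and with 5.82 and 5.83 in untreated cells. In 4146 alone, 3 of the fibroblast and 2 of the T and NK markers lay at least 1 log2 unit higher in ADR outgrowth (5.16% of all genes tested), and in 4936 0 of either list did (6.72%).

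ADR outgrowth was also set directly against ADR 5 d. On the ADR 5 d array of 4936, 5 of 20 immunoglobulin variable-region probe sets lay far from the lymphoma's median, as described above. Whether that array and the ADR outgrowth of 4936 came from the same culture was not tested. Between ADR outgrowth and ADR 5 d, limma called 0 of 11929 genes (0%), with 692 at an unadjusted p under 0.05 and a lowest adjusted p of 0.237. That comparison includes the ADR 5 d array of 4936, and with the 4936 pair of compared arrays alone it gave 215 calls, whose ADR 5 d side is that single array. Against the small outgrowth, limma called 0 of 11929 genes (0%), with 1246 at an unadjusted p under 0.05 and a lowest adjusted p of 0.435. Both comparisons have ADR outgrowth arrays in common with that against untreated cells, so the levels are given side by side.

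Lyz1 and Cd36 stood nearer to untreated cells in small outgrowth than in ADR outgrowth. Lyz1 had 8.64 and 8.79 in ADR outgrowth of 4146 and 4936, 4.25 and 5.56 in small outgrowth, 9.33 and 8.36 in big outgrowth, and 4.18 and 4.83 in untreated cells. Cd36 had 7.55 and 8.99 in ADR outgrowth, 4.26 and 5.29 in small outgrowth, 8.4 and 6.65 in big outgrowth, and 4.29 and 5.95 in untreated cells. Lyz1 was high in ADR outgrowth and in big cells and low in small cells of both lymphomas. So was Cd36 in 4146, while in 4936 its level in big cells was nearer to untreated cells than to ADR outgrowth. On the ADR 5 d array of 4146, Lyz1 and Cd36 were already at 8.52 and 8.09. Cd22 had 8.54 and 8.46 in ADR outgrowth, 10.81 and 9.86 in small outgrowth and 10.18 and 9.51 in big outgrowth. Untreated cells had 10.33 and 10.35, so ADR outgrowth was the lowest of these groups in both lymphomas. On ADR 5 d Cd22 was at 8.16 and 9.60, lower still in 4146, and on ADR+4-OHT 5 d at 8.92 and 8.73. S1pr1 had 8.22 and 7.98 in small outgrowth against 5.97 and 6.71 in ADR outgrowth. It was also low on ADR 5 d (6.50 and 7.09) and ADR+4-OHT 5 d (6.46 and 6.76). The limma difference between ADR outgrowth and small outgrowth was 3.49 for Cd36 and -1.84 for Cd22, each with an adjusted p of 0.435.

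**Figure D5:**
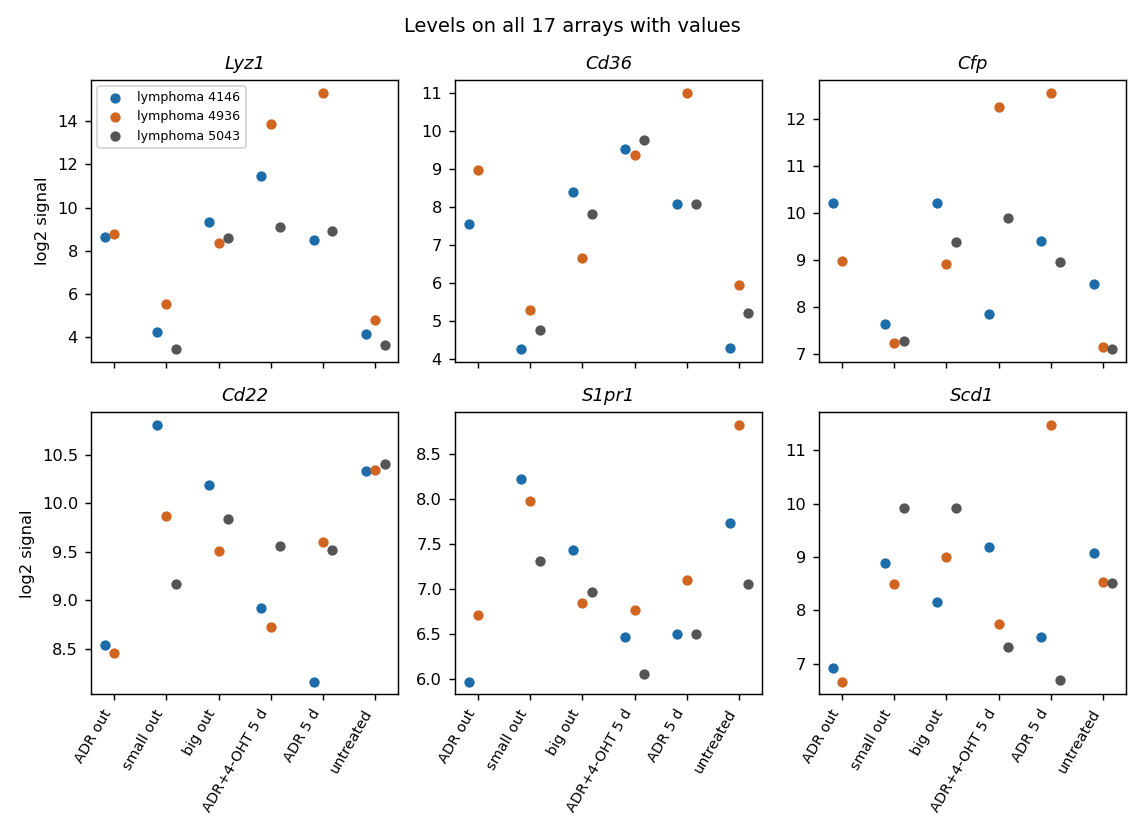
Log2 signals of 6 genes on all 17 arrays, with ADR outgrowth at the far left and untreated at the far right of each panel and a colour per lymphoma (ADR outgrowth has no value for 5043). Lyz1, Cd36 and Cfp lie higher in ADR outgrowth than in small outgrowth and untreated cells of the same lymphoma, Cd22 and S1pr1 lie lower, and the Lyz1 value of 15.31 is the ADR 5 d array of 4936. Each panel has its own vertical axis, which does not start at 0, and levels are comparable only within a lymphoma.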

How the data were processed

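Total RNA was labelled and hybridised to Affymetrix mouse arrays. For each of 45101 probe sets, the authors deposited log2 signals made with RMA, with Partek also named, per the submitters' processing notes. No version, order or parameter is given in the sources used here. The deposited values ran from -1.95 to 15.87, and every probe set had equal medians over the arrays of each lymphoma (tolerance 1e-06), a step that no label states. Of 18 columns, 17 were used. There is no sequencing depth for arrays: the precision depends on how many there are.

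Platform annotation gave 34958 probe sets 1 gene symbol, 932 several and 9211 none. A gene was tested if its probe set reached 4.86 (the overall median) on 2 or more of the 12 arrays of lymphomas 4146 and 4936. Limma 3.58.1 in R 4.3.3 was fitted to these 12 arrays with 6 groups and lymphoma as a block, with trend and robust estimation (5 residual and a median of 2.95 prior degrees of freedom), and adjusted by Benjamini-Hochberg over all genes at 0.05. The treatment protocol pairs the arrays, since each lymphoma received both treatments. The fit was tested on simulated data.

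The 37 gene lists (1116 entries, 1008 with a named probe set) and the comparison were chosen with earlier results of these data known. Genes named were Myc, Bcl2, Cdkn1a, Cdkn2a and Mki67, the 10 higher and 10 lower genes with the largest smaller-of-2 paired difference of 1 sign, and up to 2 members per list. List members beyond these, named to show a list's range, and genes said to be so were picked with their values in view. The alternatives changed the arrays, block, filter, probe set rule, normalisation and variance estimation. P-values measure the spread between arrays of 2 lymphomas.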

Additional observations from a re-analysis of the deposited data

Results flagged for a closer look

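Cd36 and B3gnt5 lay on opposite sides of untreated cells in the ADR outgrowth and in the small outgrowth, in every lymphoma measured. Cd36 differed from untreated cells by 3.26 and 3.04 in ADR outgrowth of 4146 and 4936, and by -0.03, -0.66 and -0.44 in small outgrowth of 4146, 4936 and 5043. In 4146 the Cd36 signals in small outgrowth (4.26) and untreated cells (4.29) both lie under 4.86, so that pair was level at a low signal. B3gnt5 differed by -1.40 and -1.43 in ADR outgrowth, and by 0.46, 1.16 and 1.39 in small outgrowth. The limma difference between ADR outgrowth and small outgrowth was 3.49 for Cd36 and -2.23 for B3gnt5, each with an adjusted p of 0.435. The small outgrowth array of 5043 is among those that stand apart, with 4 of 20 immunoglobulin variable-region probe sets at least 2 log2 units from the lymphoma's median.

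Probe sets without a gene name entered no comparison. Of 2912 that passed the filter on low values, 4 lay at least 1 log2 unit higher in ADR outgrowth of both lymphomas, 14 lower, and 35 passed that size in opposite directions.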

How the results depend on the processing

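Counts of calls by limma were 0 in both directions against untreated cells under every alternative run, among them the fit with no replicate block (0 calls), which ignores the pairing by lymphoma, all 17 arrays, 14, 11 or 10 arrays, and the compared arrays alone. Leaving out the pair of 4146 gave 215 calls for ADR outgrowth against ADR 5 d, so that leave-one-out range was 0 to 215. The cause was not tested, and the remaining ADR 5 d array, of 4936, stands apart. Under the mean over probe sets, 22 genes were at least 1 log2 unit higher in both lymphomas and 95 opposite. With every probe set on its own, 61 were higher, 41 lower and 349 opposite, since more features were counted. Quantile normalisation gave 20 lower. These settings for the counts of 1 log2 unit were added after the data were seen. Medians of 4936 near 0 changed sign: secreted factors to 0.0442 with a stricter filter, 0.0325 with quantile normalisation and 0.0414 with median centring, and interferon response to 0.0091 with the mean over probe sets and 0.0444 with median centring. Cdkn2a turned to -0.46 in the fit on 17 arrays, which fills in the missing 5043 array, and to -0.58 on 14 arrays. With either lymphoma left out, Cdkn2a ran from -0.47 to 0.79, Myc from -0.36 to 0.14, Cdkn1a from -0.80 to 1.60 and Bcl2 from -1.78 to 0.37. The cause was not tested. The B cell list median of 4146 moved to -0.28 with the mean over probe sets. The other 1220 values of named genes and 74 of list medians kept their direction and side of the threshold or sign.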
